A study of Mus musculus with 8 samples.

Results

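Adhesion G protein-coupled receptors were examined in the lymphatic endothelium of mouse ear skin, on expression arrays of sorted cells. Members were all genes whose symbol starts with Adgr and that had at least 1 probe set naming that gene alone. This gave 22 genes on 41 probe sets, out of 18193 genes measured in the same way. Of the other 6 Adgr symbols in the RefSeq gene table, Adgrf2, Adgrf3, Adgrg4, Adgrg5, Adgrg7 and the pseudogene Adgrd2-ps, none was analysed here. The inflamed group held 4 samples from mice with contact hypersensitivity, for which the abdomen and each paw were first painted with 2% of the allergen oxazolone. After 5 days each ear side received 10 µl of 1% oxazolone, and the ears were taken 24 hours after that. The untreated group held 4 samples from mice labelled as healthy and untreated. All mice were FVB females of 8 to 10 weeks without a genetic change named in the labels, each sample pooled the cells of 3 mice, and the study sorted its samples in 4 pairs of 1 inflamed and 1 untreated sample. That samples of the same number form such a pair is read from the shared numbers and ages and is not stated for single samples. Cells were gated as carrying CD31 and podoplanin and lacking CD45. The comparison addresses what skin inflammation does to transcript levels in the lymphatic lining.

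Adhesion receptors join a long extracellular part, often built of cell adhesion domains, to the membrane-spanning part of a G protein-coupled receptor. Most cut themselves at a site close to the membrane, and the short stretch that this exposes can act as a tethered agonist. Their subfamilies are named by letters. In blood vessels Adgrl4 and Adgrf5 are known from endothelial cells and Adgra2 from angiogenesis in the brain, while Adgre1 is a classic macrophage marker.

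Values are MAS5 signals, 1 per probe set and array, given on the log2 scale. Signals of different probe sets depend on their probes, so the level of one gene is not set against that of another. A background ceiling was set for each array as the 95th percentile of 27 bacterial control probe sets; it lay between 2.53 and 3.31. On the 8 arrays the mean signal was between 126.2 and 160.4. The log2 ratio of the 3' over the 5' probe set of a control gene is a measure of RNA and cDNA length. For Gapdh it was 2.58 to 3.30 in inflamed and 3.40 to 4.16 in untreated samples. For Actb it was -0.12 to -0.01 in inflamed and -0.15 to 0.00 in untreated samples, with no such gap between the groups. All 7 lymphatic endothelial markers measured, among them Prox1, Lyve1, Flt4 and Pdpn, were above background on all arrays. Ptprc, which encodes CD45, was above background in 3 of 4 inflamed and in 0 of 4 untreated samples, and the neutrophil genes S100a8 and S100a9 in 4 of 4 inflamed and in 1 of 4 untreated samples. All 7 fibroblast and all 4 chondrocyte markers were above background on all arrays, and 4 of 6 keratinocyte markers on all untreated arrays. Of the 7 blood endothelial markers measured, 4 were above background on all untreated arrays and 4 on all inflamed arrays. A receptor signal in these sorts can therefore not be assigned to lymphatic cells alone. With bulk RNA of sorted cells, a change in the number of cells of a type and a change of RNA per cell cannot be told apart.

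In the sorts from resting skin 11 of the 22 receptors were above the background ceiling in all 4 untreated samples. Of all genes measured 50.6% were, so the share among the receptors lay near that of all genes. These 11 receptors came from 6 of the 8 subfamilies measured. Subfamilies G and L, the latrophilin subfamily, each had 3 of 4 genes in this set, Adgrg1, Adgrg3 and Adgrg6 in the first and Adgrl1, Adgrl2 and Adgrl4 in the second. Subfamily A had 2 of 3, Adgra2 and Adgra3. Subfamilies B, E and F had 1 of 3 each, Adgrb2, Adgre5 and Adgrf5. Subfamilies D and V, with 1 gene each, had none: Adgrd1 and Adgrv1 were above background in 0 of 4 untreated samples. In the other 9 genes between 1 and 3 untreated samples were above background. Over 9 alternative settings the count of 11 ran from 10 to 13. Adgrg1 counted by a probe set able to match other genes too, and its other probe set was above background in 2 of 4 untreated samples. Adgrg6 lay at 2.92 in untreated sample 1, against a ceiling of 2.86. Its second probe set was above background in 1 of 4 untreated samples. In inflamed samples 7 receptors were above background on all 4 arrays, and these 7, Adgra2, Adgra3, Adgre5, Adgrf5, Adgrg1, Adgrg3 and Adgrl1, were also above it on all 4 untreated arrays.

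**Figure D1:**
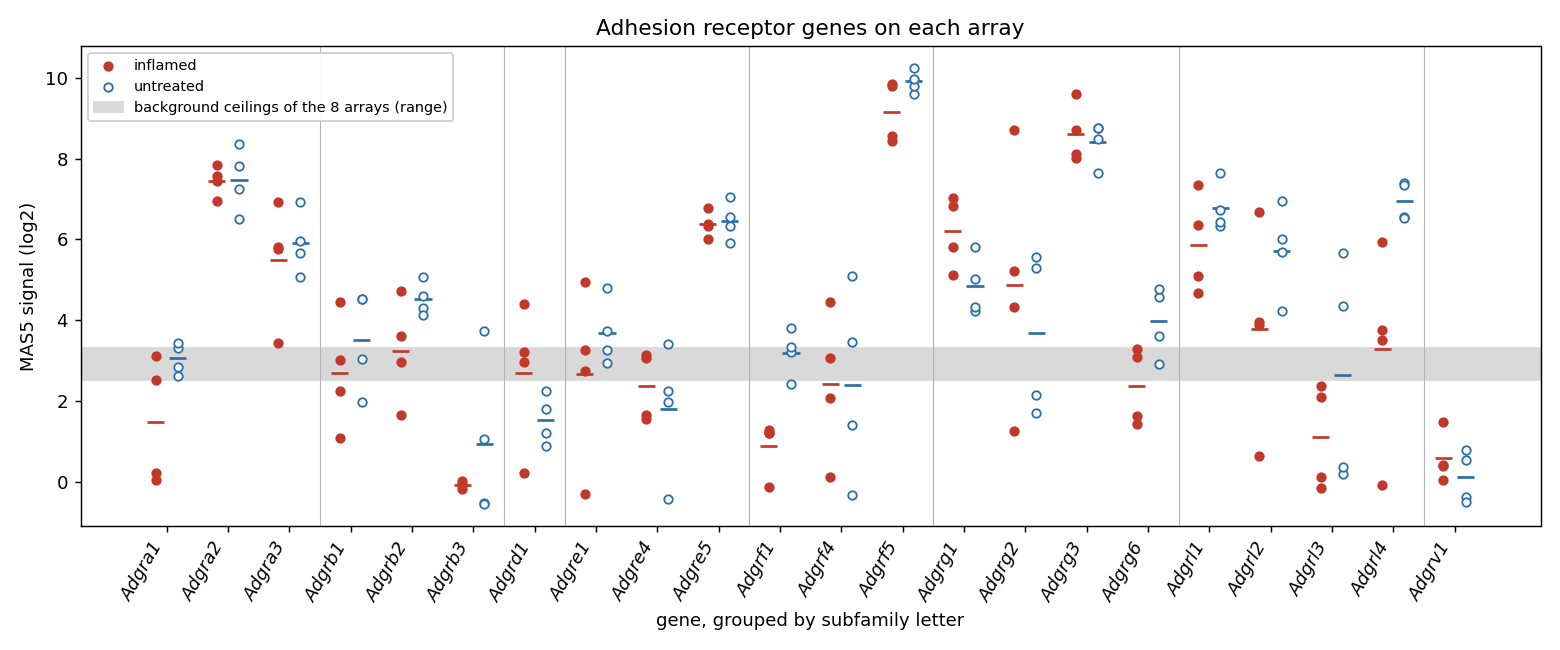
MAS5 signal on the log2 scale (vertical axis) of the 22 receptor genes (horizontal axis, grouped by subfamily letter) on each inflamed and untreated array. Points are single arrays, short lines are group means of 4 arrays, and the grey band spans the background ceilings of the 8 arrays, 2.53 to 3.31. Adgrl4 is above the band on all 4 untreated arrays and lower on every inflamed array, Adgrf5 and Adgrg3 are far above it in both groups, and Adgrv1 lies under it on every array.

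To compare the groups, each gene was represented by its probe set with the highest mean, and genes whose mean over all 8 arrays was under the median of all probe sets (3.30) were left out; 11 of the 22 receptors passed this filter and 11 did not. Of these 11, 1 gene, Adgrl4, fell in inflamed samples and 0 rose at an adjusted p under 0.05 in limma, where the pair was a block and p-values were adjusted over all 10843 genes tested. At an unadjusted p under 0.05 in limma, 2 of the 11 were lower, Adgrl4 and Adgrf5, and 0 were higher. The share of all genes at that unadjusted threshold was not counted, so these 2 are not read as more than background. At the adjusted threshold 6.94% of all genes were called, 3.02% lower and 3.91% higher, so a single call among 11 genes is close to that background. Changes are given as inflamed minus untreated, in log2 signal. The changes of the 11 receptors ran from -3.67 to 1.35 with a median of -0.42, against a median of -0.09 over all genes. The change was below 0 for 8 of the 11, and for 6 of the 11 under median centring, where all genes had a median change of 0.22 and the share of higher genes among all calls to 76.0%, against 56.4%. Adgrl4 was the only 1 of the 11 whose groups did not overlap. Over all genes tested this held for 13.1%, with inflamed samples lower in 6.84% and higher in 6.3%.

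**Figure D2:**
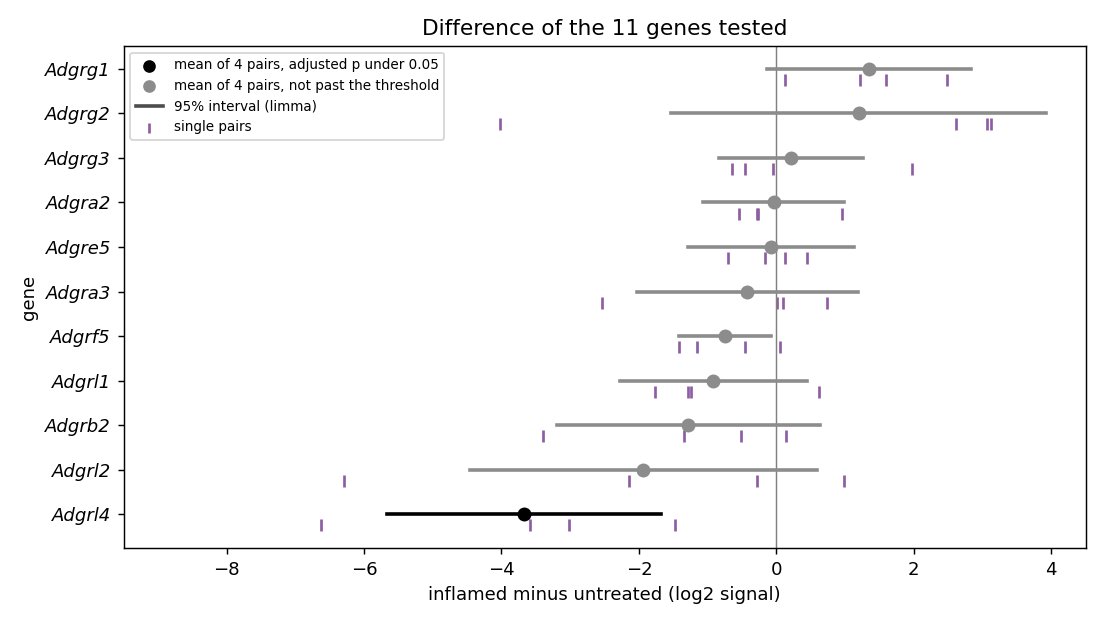
Change between inflamed and untreated samples (horizontal axis, inflamed minus untreated in log2 signal) for the 11 receptors tested (vertical axis). Large points are means over 4 pairs, bars the 95% intervals of the limma fit, and ticks the single pairs; the interval of Adgrl4, -5.66 to -1.68, is the only one drawn in black, for an adjusted p under 0.05.

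Adgrl4, an orphan receptor of endothelial and heart muscle cells also known as ELTD1, lies on chromosome 3 (151437882 to 151545081, GRCm38). It had log2 signals of -0.08, 3.51, 5.94 and 3.76 in inflamed samples 1 to 4, against 6.55, 6.52, 7.40 and 7.35 in untreated samples 1 to 4. Every inflamed sample was lower than every untreated one, and inflamed sample 1 was the lowest, under the background ceiling. The inflamed mean was 3.28 ± 2.49 and the untreated mean 6.96 ± 0.49 (SD, n = 4 each), a change of -3.67 ± 0.88 (SE), 12.8-fold lower, with an adjusted p of 0.0391 in limma. The gene was lower in all 4 pairs, with differences of -6.63, -3.01, -1.47 and -3.59 in pairs 1 to 4. Its second probe set gave 0.63, 4.13, 5.47 and 4.41 in inflamed samples, against 4.86, 6.74, 6.46 and 6.60 in untreated samples. This probe set was also lower in all 4 pairs, with a change of -2.51, but inflamed sample 3 lay above untreated sample 1, and its adjusted p was 0.0945 in limma with each probe set tested on its own.

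The call of Adgrl4 ended whenever 1 pair was left out. Without pair 1 the change was -2.69 (adjusted p = 0.111 in limma), without pair 2 -3.89 (0.0997), without pair 3 -4.41 (0.0588) and without pair 4 -3.70 (0.0869). The call also ended in limma without the pair as a block (adjusted p = 0.0624), without the intensity trend in the variance (0.119) and after cyclic loess normalization (0.051). With the pair as a random block it was kept (adjusted p = 0.0418 in limma). Of the 15 alternatives that tested Adgrl4, 8 kept the call and 7 did not. The call thus lay near the threshold and depended in part on the pairing as read from the numbers. With values under the ceiling set to the ceiling, a setting chosen after the data were seen, the change was -2.91 and the adjusted p 0.0228. Most changes of the lymphatic and pan-endothelial markers were below 0, with medians of -0.91 and -0.78. Within these lists only Pdpn and Cdh5 had changes above 0. The blood endothelial list went both ways, with a median of 0.23 over 5 tested genes. Cd34, Emcn and Plvap had changes of 1.20, 0.23 and 0.59 that did not pass. Aqp1 and Gpihbp1 fell by 1.63 and 2.76 (adjusted p = 0.00593 and 0.0305 in limma). Of the 8 pan-endothelial genes, 3 fell and 0 rose: Tek by 1.47 (adjusted p = 0.046 in limma), Kdr, a VEGF receptor, by 1.71 (0.00852) and Tie1 by 2.18 (0.0141), while Cdh5 had a change of 0.50 (0.181). Of the 7 lymphatic genes, 3 fell and 0 rose: Reln by 0.91 (adjusted p = 0.0298 in limma), Mmrn1 by 1.20 (0.00216) and Nrp2 by 1.71 (0.0045). Among the others, Pdpn was higher in all 4 pairs (change 0.56; adjusted p = 0.0605 in limma) and Lyve1 had a change of -0.18 (0.467). Prox1, the lymphatic master regulator, had 7.79, 10.14, 11.05 and 9.95 in inflamed samples, against 11, 11.26, 11.38 and 11.03 in untreated samples (adjusted p = 0.0618 in limma). Inflamed sample 1 was the lowest inflamed sample for Adgrl4. The same held for every lymphatic and pan-endothelial marker measured except Erg, Nrp2 and Pecam1 (9.05, against 9.04 in inflamed sample 4). Untreated sample 1 was the lowest untreated sample for Prox1, Pdpn, Reln, Pecam1, Cdh5, Tek, Tie1, Esam and Cldn5, and tied for Kdr. It was not the lowest for Lyve1, Flt4, Mmrn1, Nrp2 and Erg. For Adgrl4 it was the lowest by the second probe set (4.86) and close to the lowest by the first (6.55, against 6.52 in untreated sample 2).

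**Figure D3:**
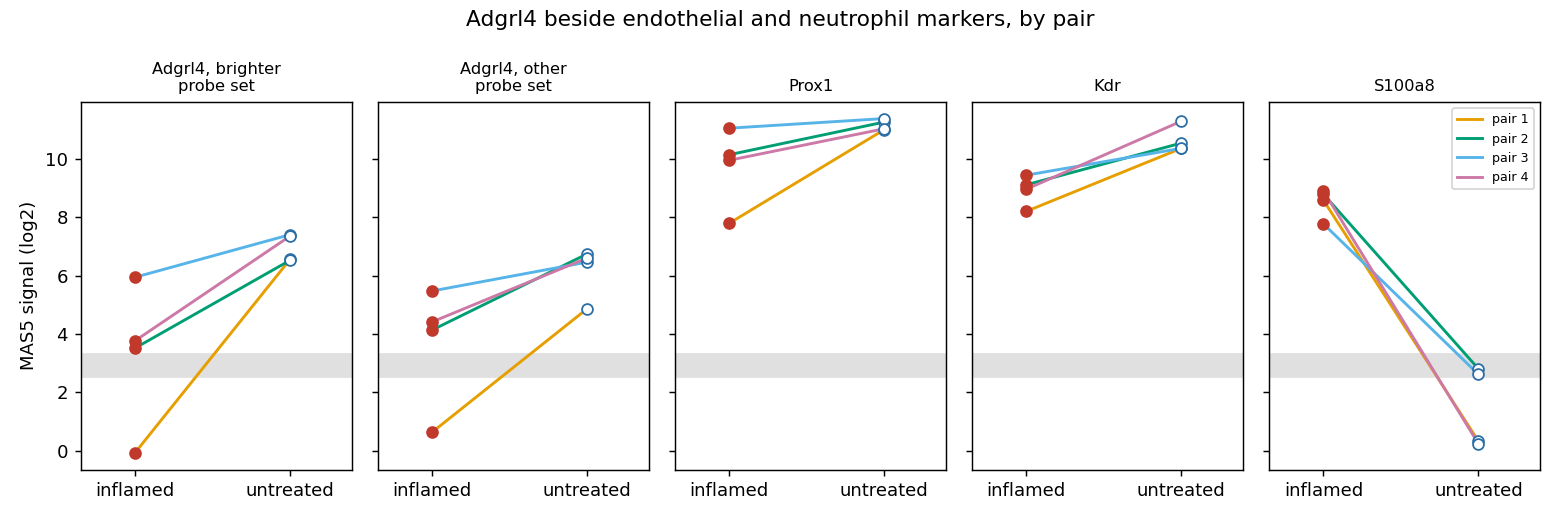
MAS5 signal on the log2 scale (vertical axis) of both Adgrl4 probe sets and of Prox1, Kdr and S100a8 in inflamed (filled) and untreated (open) samples; lines join the samples of a pair and the grey band spans the background ceilings. Both Adgrl4 probe sets are lower in the inflamed sample of each pair, most of all in pair 1, where Prox1 is also lowest, and S100a8 is higher in the inflamed sample of each pair.

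The summed linear signal of the 8 pan-endothelial markers was 4340 to 8050 in inflamed and 7630 to 12900 in untreated samples, and that of the 7 lymphatic markers 12100 to 20800 in inflamed and 21800 to 28300 in untreated samples. The 10 neutrophil markers measured summed to 730 to 1670 in inflamed and 38.7 to 86.8 in untreated samples, with 2 of 10 above background on all inflamed arrays and 0 of 10 on all untreated arrays. These 2 were S100a8 and S100a9, the only ones tested, which rose by 7.02 and 7.30 (adjusted p = 0.00151 and 0.00121 in limma). The other neutrophil markers were too dim for the test and differed by -0.68 (Elane) to 2.74 (Cxcr2), with Ngp at 0.02 and Ltf at 0.22. The 12 monocyte and macrophage markers summed to 1040 to 3100 in inflamed and 489 to 1380 in untreated samples. The 7 fibroblast markers summed to 8450 to 21100 in inflamed and 3360 to 16400 in untreated samples, and the 6 keratinocyte markers to 58.7 to 860 in inflamed and 712 to 3490 in untreated samples. Single markers passed the adjusted threshold in some lists and not in others. The leukocyte genes Cd53 and Lcp1 rose by 9.07 and 6.16 on the log2 scale (adjusted p = 0.000273 and 0.00666 in limma), with groups that did not overlap. On the same list Coro1a had a change of 2.77 (0.0965) and Laptm5 of 0.38 (0.863), and neither passed. Laptm5 was above background in all 4 untreated samples, at 6.89 to 9.28. The macrophage gene Aif1 rose by 3.54 (0.0358), the fibroblast genes Lum and Col6a3 by 1.49 and 1.78 (0.0167 and 0.0488), and the keratinocyte genes Krt5, Krt10 and Krt2 fell (0.0354, 0.0299 and 0.00618). Aif1, Lum, Col6a3 and Krt10 had groups that overlapped, and Krt5 and Krt2 did not. Groups also overlapped for Pecam1, which encodes CD31, at 9.04 to 10.65 in inflamed and 10.36 to 10.59 in untreated samples. The same held for the macrophage marker Cd68, at 3.91 to 7.29 in inflamed and 0.59 to 6 in untreated samples. It held too for the fibroblast collagen Col1a1 and the Schwann cell factor Sox10. The part of these shifts in the lower signal of Adgrl4 was not tested.

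The promoter windows of Adgrl4 and Adgrf5 are shown because the first carries the call and the second is also known from endothelium. Each runs from 250 bases before to 50 bases after a start in RefSeq (GRCm38.p6, plus strand), chr3:151437632-151437931 and chr17:43360181-43360480. Capitals mark GGAA, the core of sites bound by ETS factors, on either strand.
Adgrl4: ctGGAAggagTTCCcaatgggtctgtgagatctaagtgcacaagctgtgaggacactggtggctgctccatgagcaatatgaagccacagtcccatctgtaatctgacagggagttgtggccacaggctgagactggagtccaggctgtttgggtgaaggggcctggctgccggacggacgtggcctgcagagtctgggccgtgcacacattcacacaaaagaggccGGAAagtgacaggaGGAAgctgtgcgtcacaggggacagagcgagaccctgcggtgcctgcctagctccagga
Adgrf5: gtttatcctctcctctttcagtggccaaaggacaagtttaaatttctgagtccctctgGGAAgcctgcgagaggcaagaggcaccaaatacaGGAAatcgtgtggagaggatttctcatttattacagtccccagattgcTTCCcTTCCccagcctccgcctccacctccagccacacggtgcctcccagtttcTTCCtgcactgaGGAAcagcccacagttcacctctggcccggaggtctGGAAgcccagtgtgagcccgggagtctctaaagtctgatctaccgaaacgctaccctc
The core occurred 4 times in the first window, 7 times in the second and 5 times in the window of another Adgrf5 start, against a median of 3 among 32851 promoters of the same length, of which 96.0% held at least 1. The AP-1 motif TGANTCA matched in 0 places in these windows, against 7.81% of promoters with at least 1 match, and so did the interferon-stimulated element, GAAA and GAAA with any 2 bases between (3.44%). An NF-kB pattern, GGG and CC with any 5 bases between, matched in 0 places in Adgrl4, in 2 in the printed Adgrf5 window and in 0 in the other, against 50.8% of promoters with at least 1 match. These are matches of letters on both strands, counted with overlaps, and not measured sites; the motifs were chosen with the results known.

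The other latrophilins, Adgrl1 to Adgrl3, are known from synapses, where they bind teneurins, FLRT proteins and neurexins. Adgrl2 had 6.67, 3.87, 0.65 and 3.95 in inflamed samples, against 5.69, 6.02, 6.94 and 4.23 in untreated samples. The groups overlapped and inflamed sample 3 was under background, with a change of -1.94 ± 1.12 (SE; adjusted p = 0.361 in limma; 95% interval -4.46 to 0.59). Its second probe set was lower in all 4 pairs with a change of -1.89 (adjusted p = 0.255 in limma on single probe sets), and neither passed. Without pair 3 the change of the first was -0.48. Adgrl1 had 6.36, 7.34, 5.10 and 4.67 in inflamed samples, against 7.64, 6.72, 6.34 and 6.44 in untreated samples. It was lower in 3 of 4 pairs, with a change of -0.92 ± 0.60 (adjusted p = 0.427 in limma), while its second probe set differed by 0.20. Adgrl3 was above background in 0 of 4 inflamed and 2 of 4 untreated samples by its brightest probe set.

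In subfamily F, Adgrf5, also known as GPR116, is known from endothelium and from lung epithelium, where it controls surfactant. It had 8.44, 9.84, 9.79 and 8.57 in inflamed samples, against 9.59, 9.79, 10.25 and 9.98 in untreated samples. Inflamed samples 1 and 4 were below every untreated sample and the other 2 within their range. The change was -0.74 ± 0.30 (SE; 95% interval -1.42 to -0.07), with an unadjusted p of 0.0344 and an adjusted p of 0.185 in limma, so it did not pass over all genes. The second probe set gave 8.51 to 9.28 in inflamed and 8.97 to 9.42 in untreated samples, a change of -0.35. Adgrf1 and Adgrf4 did not pass the filter. Adgrf1 had -0.14, 1.21, 1.28 and 1.21 in inflamed samples, against 3.21, 3.33, 3.80 and 2.43 in untreated samples. As 0 of 4 inflamed and 3 of 4 untreated samples were above background, the size of the difference is uncertain and no fold is given. With no filter on dim probe sets Adgrf1 did not pass (adjusted p = 0.151 in limma).

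In subfamily G, Adgrg1, also known as GPR56, is a receptor for collagen III and transglutaminase 2. It had 5.82, 6.82, 7.02 and 5.13 in inflamed samples, against 4.23, 4.33, 5.81 and 5.01 in untreated samples. The value was higher in all 4 pairs, by 0.12 in pair 4 and by 1.22 to 2.49 in the others, but the groups overlapped. The change of 1.35 ± 0.66 (SE; 95% interval -0.14 to 2.84) did not pass (adjusted p = 0.275 in limma). The second probe set had 6.44, 5.76, 6.03 and 3.63 in inflamed samples, against 3.10, 1.86, 4.34 and 2.99 in untreated samples, again higher in all 4 pairs, with a change of 2.39 ± 0.85 and an adjusted p of 0.140 in limma on single probe sets. The brighter probe set carries the suffix that marks probes able to match other genes too, and the other 1 carries the suffix for transcripts of a single gene; both moved up in each pair and neither passed.

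Adgrg3, also known as GPR97, is known from neutrophils and other granulocytes. It had 8.02, 9.61, 8.70 and 8.12 in inflamed samples, against 8.48, 7.64, 8.75 and 8.76 in untreated samples, and the groups overlapped. Inflamed sample 2 lay above every untreated sample, and untreated sample 2 below every inflamed one. The change was 0.21 ± 0.47 (SE; 95% interval -0.84 to 1.26; adjusted p = 0.851 in limma), and without pair 2 it was -0.38. In the same samples the neutrophil gene S100a8 had 8.58, 8.79, 7.77 and 8.90 in inflamed samples, against 0.32, 2.80, 2.61 and 0.23 in untreated samples, a rise of 7.02 ± 0.81 (adjusted p = 0.00151 in limma). Adgrg3 was above background in all 4 untreated samples. S100a8 was under background in 3 of them, while 7 of the 10 neutrophil markers were above it in at least 1 of them. Which cells gave the Adgrg3 signal was not tested. Adgrg2, also known as GPR64 and from the male genital tract, ranged from 1.26 to 8.70 in inflamed and from 1.71 to 5.57 in untreated samples. Its groups spread too widely for a call (change 1.20 ± 1.21; adjusted p = 0.624 in limma). The change was 2.93 without pair 3 (adjusted p = 0.112) and 0.55 without pair 1 (0.895), both in limma. Adgrg6, also known as GPR126, drives myelination by Schwann cells. It had 1.62, 3.10, 3.29 and 1.44 in inflamed samples, against 2.92, 4.57, 3.61 and 4.77 in untreated samples. It was lower in all 4 pairs and above background in 1 of 4 inflamed and 4 of 4 untreated samples, but it missed the filter at a mean of 3.17 and was not tested; with no filter it was tested and did not pass (adjusted p = 0.416 in limma).

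**Figure D4:**
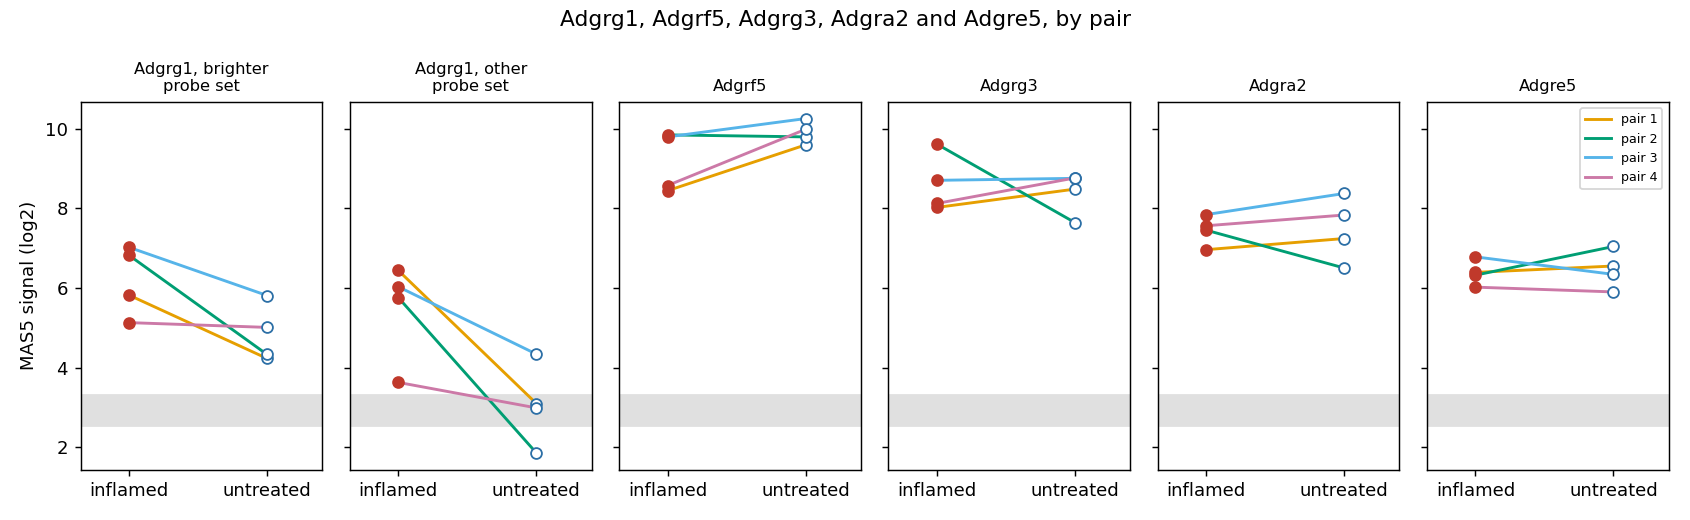
MAS5 signal on the log2 scale (vertical axis) of both Adgrg1 probe sets and of Adgrf5, Adgrg3, Adgra2 and Adgre5 in inflamed (filled) and untreated (open) samples; lines join the samples of a pair and the grey band spans the background ceilings. Adgrg1 is higher in inflamed samples in each pair by both probe sets, while Adgrg3, Adgra2 and Adgre5 go both ways among the pairs.

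In subfamily A, Adgra2, also known as GPR124, acts with Reck as a receptor complex for Wnt7 in brain vessels. It had 6.96, 7.45, 7.84 and 7.56 in inflamed samples, against 7.24, 6.50, 8.37 and 7.83 in untreated samples. The change was -0.03 ± 0.45 (SE; 95% interval -1.06 to 0.99; adjusted p = 0.978 in limma), and its sign turned under median centring (0.27). Adgra3, also known as GPR125, had 6.92, 3.44, 5.77 and 5.81 in inflamed samples, against 6.92, 5.97, 5.67 and 5.06 in untreated samples, a change of -0.42 ± 0.71 (adjusted p = 0.791 in limma) that rested on pair 2, without which it was 0.28. A second Adgra3 probe set had 3.39, 4.25, 4.17 and 4.62 in inflamed samples, against 5.61, 5.33, 5.26 and 5.34 in untreated samples; these groups did not overlap, yet the change of -1.28 ± 0.72 did not pass (adjusted p = 0.354 in limma on single probe sets).

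In subfamily E, whose members are known mainly from leukocytes, Adgre5, the CD97 antigen and a receptor for Cd55, was above background on all arrays. It had 6.39, 6.32, 6.78 and 6.02 in inflamed samples, against 6.55, 7.04, 6.34 and 5.90 in untreated samples. The change of -0.07 ± 0.53 (SE; 95% interval -1.28 to 1.13; adjusted p = 0.958 in limma) changed sign under median centring (0.23). Adgre1, the macrophage marker, was above background in 2 of 4 inflamed and 3 of 4 untreated samples, at -0.30 to 4.95 and 2.94 to 4.79, and Adgre4 in 2 of 4 and 1 of 4. Neither passed the filter. In subfamily B, known from the brain, Adgrb2 had 4.73, 2.97, 3.62 and 1.65 in inflamed samples, against 4.59, 4.31, 4.14 and 5.06 in untreated samples. Its change of -1.28 ± 0.85 did not pass (adjusted p = 0.429 in limma). Adgrb1 was above background in 2 of 4 inflamed and 3 of 4 untreated samples and Adgrb3 in 0 of 4 and 1 of 4. Adgrd1 was above background in 2 of 4 inflamed and 0 of 4 untreated samples, and Adgra1 in 0 of 4 inflamed and 2 of 4 untreated samples. Adgrv1, a giant receptor of inner ear hair cells, was at -0.50 to 1.48 on all arrays.

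Of the ligands and binding partners of these receptors, 24 of 37 listed genes were tested, and 2 rose and 1 fell. Col4a1, a chain of collagen IV, which binds Adgrg6, had 11.71, 12.58, 12.35 and 12.56 in inflamed samples, against 9.81, 11.36, 11.27 and 10.96 in untreated samples, a rise of 1.45 ± 0.16 (SE; adjusted p = 0.00122 in limma). Tgm2, transglutaminase 2, which binds Adgrg1, rose by 0.80 ± 0.11 (adjusted p = 0.00355 in limma). Its inflamed mean was 12.69 ± 0.32 and its untreated mean 11.89 ± 0.42 (SD, n = 4 each), and its call in limma ended without the pair as a block (adjusted p = 0.0522). Rtn4rl1, of the family of Nogo receptors that bind subfamily B, fell by 3.42 (adjusted p = 0.0303 in limma), and its call ended without pair 1, 3 or 4 (adjusted p = 0.114, 0.0984 and 0.0732). None of the listed binding partners of Adgre5 passed. Cd55, which shields cells from complement, had 8.48, 7.26, 8.19 and 7.96 in inflamed samples, against 9.60, 9.19, 9.41 and 8.81 in untreated samples, a change of -1.28 ± 0.33 (adjusted p = 0.0521 in limma). Thy1 averaged 10.53 ± 0.35 in inflamed and 11.18 ± 0.13 in untreated samples, a change of -0.65 ± 0.19 (adjusted p = 0.0757 in limma). The integrin subunits Itga5, Itgb1, Itgav and Itgb3 had adjusted p-values of 0.51, 0.851, 0.859 and 0.494 in limma. The latrophilin ligand Flrt2 differed by 0.11 (adjusted p = 0.887 in limma), and Reck by -1.10 (adjusted p = 0.172).

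Of 27 listed G proteins, arrestins and other transducers, 25 were tested, of which 2 rose and 1 fell. Gna13, a G protein alpha subunit, had 10.26, 10.09, 9.78 and 10.04 in inflamed samples, against 8.81, 8.67, 9.05 and 8.67 in untreated samples. It rose by 1.24 ± 0.26 (SE; adjusted p = 0.0219 in limma), with groups that did not overlap. Gna14, a subunit of the Gq class, rose by 2.98 ± 0.74 (adjusted p = 0.0445 in limma) and had 8.64, 5.73, 6.90 and 6.22 in inflamed samples, against 4.99, 3.27, 2.27 and 5.03 in untreated samples. The gamma subunit Gng11 fell by 1.16 (adjusted p = 0.0219 in limma), with an inflamed mean of 9.44 ± 0.83 and an untreated mean of 10.60 ± 0.43 (SD, n = 4 each). The calls of Gna13 and Gng11 ended when any 1 of the 4 pairs was left out (adjusted p of 0.0531 to 0.0994 and of 0.0516 to 0.0773 in limma). That of Gna14 ended without pair 1, 2 or 3 (0.167, 0.0999 and 0.165), and those of Gna14 and Gng11 without the pair as a block (0.061 and 0.107). The call of Gng11 also ended in limma with the pair as a random block (adjusted p = 0.0709) and with median centring (0.0596), that of Gna14 with no filter (0.058), and that of Gna13 with the mean of all its probe sets (0.0884).

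Subfamily C carries the symbol Celsr and lies outside the naming rule; its members work in planar cell polarity, in lymphatic vessels in the forming of valves. Celsr1 had 3.62, 6.32, 7.34 and 6.42 in inflamed samples, against 4.83, 7.88, 6.80 and 7.58 in untreated samples (change -0.85 ± 0.59 (SE); adjusted p = 0.454 in limma). Celsr2, named after its values were seen, had 9.26, 8.58, 7.26 and 9.51 in inflamed samples, against 6.50, 4.86, 7.94 and 7.66 in untreated samples, a change of 1.91 ± 0.66 that did not pass (adjusted p = 0.128 in limma). Of the 10 tested genes of this list, 0 rose and 2 fell. Vangl2, a core membrane protein of planar polarity, had 2.32, 3.15, 4.90 and 4.33 in inflamed samples, against 6.41, 6.90, 6.22 and 7.04 in untreated samples, a change of -2.97 ± 0.72 (adjusted p = 0.0409 in limma). Its call ended under each scaling alternative and without any 1 pair (adjusted p of 0.0629 to 0.140), and with the mean of all its probe sets the change was -0.22. Prickle2, its cytoplasmic partner, fell by 3.79 (adjusted p = 0.0258 in limma), with 1 of 4 inflamed samples above background, so the size of the change is uncertain. With values under the ceiling raised to it the change was -2.95 (adjusted p = 0.0249 in limma). Its call ended without pair 2, 3 or 4 (0.0894, 0.0972 and 0.0814). In all, 4 of 59 tested partner genes rose and 4 fell, against 3.91% and 3.02% of all genes. Without the intensity trend, 0 of the 8 passed. The neutrophil, macrophage and endothelial marker sums given above moved in the same samples, and their part in these changes was not tested.

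**Figure D5:**
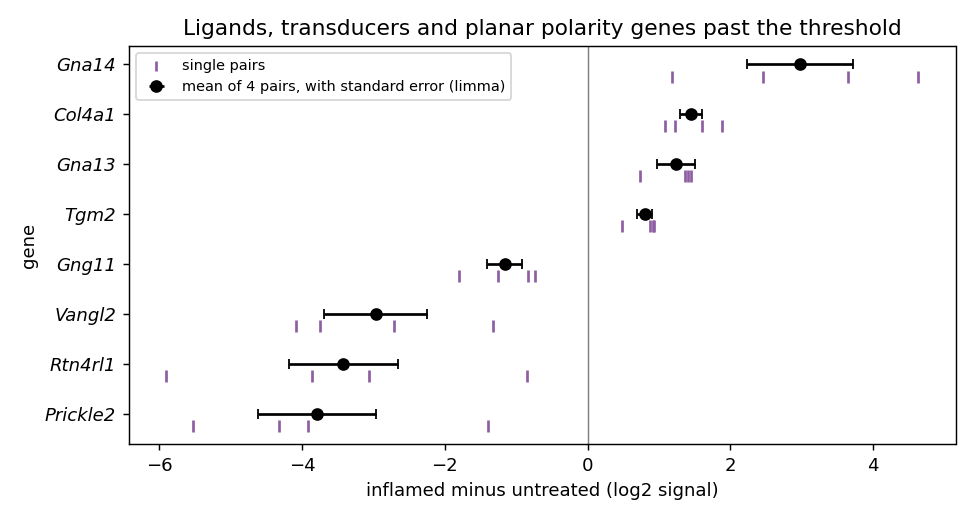
Change between inflamed and untreated samples (horizontal axis, inflamed minus untreated in log2 signal) of the 8 ligand, transducer and planar polarity genes (vertical axis) past an adjusted p of 0.05. Points are means over 4 pairs with the standard error of the limma fit, and ticks are the single pairs; Gna14, Col4a1, Gna13 and Tgm2 lie above 0 in every pair, and Gng11, Vangl2, Rtn4rl1 and Prickle2 below 0 in every pair.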

How the data were processed

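Affymetrix arrays were read for 8 samples, 4 inflamed and 4 untreated, grouped by the labels. The deposited values are MAS5 signals, linear intensities per probe set, per the submitters' processing notes; the MAS5 version and scaling target stay unstated in those notes. The labels' protocols give a single isothermal amplification of RNA from few sorted cells before hybridisation. Probe sets were named from the platform annotation: of 45101, 34945 named 1 gene, 932 several and 9160 none, with 64 controls, and 34741 gene IDs were found in RefSeq. The number of arrays limits the precision.

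Intensities were taken to log2 with no further scaling. The test was limma's (version 3.58.1, R 4.3.3) with the pair as a block and an intensity trend, and p-values were adjusted by Benjamini-Hochberg over 10843 genes. Array medians differed by at most 0.468. The labels' protocols state parallel extraction of 1 inflamed and 1 untreated sample sorted on the same day; that the replicate numbers mark these pairs is inferred from shared numbers and ages, and deviations from the group means correlated within pairs at 0.16, -0.0012, 0.082 and 0.032. Replicates are pools of different mice. In data simulated from this comparison (10843 genes, 50 changed per size), limma called 2% of genes with a log2 change of 1, 32% of those with 2, 56% with 3 and 82% with 4. The simulation changed fewer genes than the 752 called in the real data, so these shares need not hold for the real comparison.

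Members past the threshold, and members above background on all arrays of a group, are given in full, the others by ranges and counts; of the ligand, transducer and planar polarity lists all genes past the threshold are named, plus Cd55, Thy1, Col4a1, Tgm2, Flrt2, Reck and Celsr1. Adgrf1, Celsr2, the Adgre5-binding integrins and single markers were added after their values were seen. The members, lists, motifs and background ceiling were chosen with earlier results of these data known. Alternatives changed the scaling, filter, variance trend, block, probe set rule and pairs used, and 1, raising values under the ceiling to it, was chosen after seeing the data.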

Additional observations from a re-analysis of the deposited data

How the results depend on the processing

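The 1 receptor called lower became 0 under cyclic loess, a stricter filter on dim probe sets (which left Adgrl4 out), no intensity trend, no replicate block and each omission of a pair (0 to 0). No receptor was called higher by limma in any setting run. Over all genes, 719 were higher with median centring and 94 without the trend, where 47 were lower; omitting a pair left 208 to 306 higher and 126 to 198 lower, with fewer samples. Of the partner genes, 0 were higher without the trend, 2 without the replicate block and 2 to 4 without a pair, and 2 were lower with median centring, 0 without the trend and 0 to 1 without a pair. Signs turned for Adgra2 with median centring (0.27) and cyclic loess (0.01), and for Adgre5 with median centring (0.23), quantile normalization (0.06) and cyclic loess (0.07). Without 1 pair the change ran from -0.36 to 0.13 for Adgra2, -0.81 to 0.28 for Adgra3, -0.25 to 0.14 for Adgre5 and -0.38 to 0.49 for Adgrg3. It ran from -2.91 to -0.48 for Adgrl2, 0.55 to 2.93 for Adgrg2, -1.75 to -0.57 for Adgrb2, -1.43 to -0.63 for Adgrl1, -1.01 to -0.52 for Adgrf5 and 0.97 to 1.77 for Adgrg1, with no call. The causes of the turned signs were not tested. All 15 alternatives that tested Adgrl4 kept it below 0, at -4.41 to -2.13, with adjusted p-values of 0.0211 to 0.119 in limma. The replicate block changed no other receptor's call. With no filter the other 11 receptors were tested and none passed in limma (adjusted p of 0.151 to 0.994); many of their signals are under the background ceiling.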
